A study of Mus musculus with 16 samples.

Results

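Inflammatory cells taken from the liver were compared with whole liver, both from mice that had received concanavalin A and, 3 h later, adipose tissue-derived stem cells. The comparison held 5 of the 16 arrays of the series: 2 of hepatic inflammatory cells (No. 987 and No. 989) and 3 of liver (mice No. 1, No. 2 and No. 3), chosen by their labelled tissue, time and treatment and by no measured value. All animals were female C57Bl/6 mice, with no allele or transgene named, and their age was not given in the sources used here. Each had been injected with 300 µg of concanavalin A. Stem cells grown from collagenase-digested inguinal fat of the same strain were given into the tail vein at 100000 per mouse, and tissue was collected 2 h afterwards, at 5 h. For the most similar comparison, 2 arrays of inflammatory cells (No. 983 and No. 985) and 3 of liver (mice No. 4, No. 5 and No. 6) came from mice at 5 h of concanavalin A alone. The source label of those 2 samples of cells also mentions stem cells, while their description and treatment labels do not, and they were taken as not having received them. The labels do not say how the inflammatory cells were isolated, or whether samples of cells came from separate or pooled mice, so the spread behind each p-value may be technical rather than between animals.

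Concanavalin A, a lectin of jack beans, stimulates T cells, and in mice it causes a hepatitis driven by T cells, natural killer T cells and macrophages through interferon-gamma and tumour necrosis factor. Hepatocytes make up most of the mass of the liver and secrete plasma proteins, synthesise urea and bile acids, and answer cytokines with acute phase proteins. Leukocytes reach the inflamed liver along chemokines released by hepatocytes, endothelium and macrophages, and recognise them through receptors on their own surface. Setting the cells beside the whole organ therefore shows, gene by gene, on which side of such an exchange a transcript was the more abundant.

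Promoters of 4 genes with large differences are printed here because the factors that define the 2 sides, PU.1 in leukocytes and HNF4 and C/EBP factors in hepatocytes, bind short words of this kind. The genes were picked after seeing which promoters hold these letters. Fcmr, the Fc receptor for IgM, and Fcrla, an Fc receptor-like protein of B cells, were higher in the inflammatory cells. Alb, serum albumin, and Saa2, the acute phase protein serum amyloid A2, were lower in them. Sequences are RefSeq promoters of GRCm38.p6, 300 bases each, from 250 bases before to 50 bases after the annotated start, 5′ to 3′ on the strand of the gene. Capitals mark the matched words, which lay 36 bases before the start in Fcmr and 37 bases before it in Fcrla (PU.1 core), and 183 bases before it in Saa2 (C/EBP core). In Alb they lay 182 bases (HNF4 core) and 94 bases (C/EBP core) before the start. Fcrla also holds the NF-kB core, a word counted below, which is left in lower case.
Fcmr, chr1:130865527-130865826, plus strand: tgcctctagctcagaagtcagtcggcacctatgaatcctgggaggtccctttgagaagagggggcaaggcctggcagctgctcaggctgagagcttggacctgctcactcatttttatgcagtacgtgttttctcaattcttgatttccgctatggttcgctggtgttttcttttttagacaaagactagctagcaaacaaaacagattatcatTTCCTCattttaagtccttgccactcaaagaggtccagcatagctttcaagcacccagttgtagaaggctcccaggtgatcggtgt
Fcrla, chr1:170927534-170927833, minus strand: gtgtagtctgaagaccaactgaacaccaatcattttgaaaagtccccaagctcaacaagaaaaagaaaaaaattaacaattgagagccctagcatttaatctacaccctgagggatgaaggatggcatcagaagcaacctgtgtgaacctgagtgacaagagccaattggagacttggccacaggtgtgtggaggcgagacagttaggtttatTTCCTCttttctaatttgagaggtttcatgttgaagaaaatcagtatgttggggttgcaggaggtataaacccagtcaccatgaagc
Alb, chr5:90460620-90460919, plus strand: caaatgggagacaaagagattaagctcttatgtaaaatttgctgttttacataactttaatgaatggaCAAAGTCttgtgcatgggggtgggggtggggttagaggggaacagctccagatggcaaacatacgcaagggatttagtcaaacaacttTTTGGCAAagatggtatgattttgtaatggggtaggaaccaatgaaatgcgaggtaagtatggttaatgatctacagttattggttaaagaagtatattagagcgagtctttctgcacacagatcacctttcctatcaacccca
Saa2, chr7:46751583-46751882, plus strand: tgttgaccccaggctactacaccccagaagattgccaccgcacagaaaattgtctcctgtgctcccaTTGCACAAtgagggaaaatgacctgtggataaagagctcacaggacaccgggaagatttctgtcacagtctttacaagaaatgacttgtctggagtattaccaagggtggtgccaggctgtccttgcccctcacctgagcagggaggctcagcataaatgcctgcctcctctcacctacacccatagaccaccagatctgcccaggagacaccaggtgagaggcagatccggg

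The words were counted on both strands in the promoters of the 12210 tested genes that had one (the first was used for the 2345 genes with several). The PU.1 core, GAGGAA, stood in 33.9% of 755 promoters of genes called higher in the inflammatory cells by at least 3 on the log2 scale and in 25.1% of 1449 promoters of genes called lower by as much, against 26.9% of all promoters. The C/EBP core, TTGCNNAA, stood in 10.9% and 13.4% of these 2 sets, against 8.93% of all, and the HNF4 core, CAAAGTC, in 4.50% and 6.21%, against 4.00%. The NF-kB core, GGGANNTT, stood in 14.6% and 16.1%, against 13.6%. None of the 4 words contains another. Both sets were poorer in CpG than promoters at large, with a median of 11 CpG each against 18, so the base composition of the sets differs from that of all promoters too. The PU.1 core stood in 7 of 13 promoters of genes shared by all leukocytes, 5 of 13 of B cell genes, 3 of 11 of plasma protein genes and 1 of 13 of acute phase genes. The C/EBP core stood in 6 of 13 promoters of acute phase genes, 5 of 11 of plasma protein genes, 2 of 13 of B cell genes and 1 of 13 of leukocyte genes, and the HNF4 core in none of the 13 of acute phase genes and 3 of 11 of plasma protein genes. These are matches of letters, and binding was not measured.

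Each array carried 43379 probe spots that are not controls, of which 52.1% to 62.4% were well above background on the 5 arrays, and none was saturated. Values are log2 intensities relative to the 75th percentile of the same array, so 0 is a bright probe, the lowest values lie near background, and levels of different genes cannot be set against each other. Across genes, the 3 livers correlated at 0.977 to 0.985 with each other, the 2 samples of cells at 0.977, and cells with livers at 0.685 to 0.728. All arrays of cells lay on 1 slide and the livers on 3 others, so slide and tissue cannot be told apart. Liver No. 1 shared the scan number of the cells and livers No. 2 and No. 3 did not. The difference between the mean of the cells and each single liver had the same sign as the reported one for 10409, 10406 and 10410 of the 10410 genes called, for livers No. 1, No. 2 and No. 3. Each liver is part of the mean that set these signs, and the genes were called on the same arrays. Such agreement was therefore largely fixed in advance, and it says nothing about slide or scan number.

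Most of the transcriptome differed between the inflammatory cells and the liver. Of 16311 genes tested, 4623 were higher in the cells (28.3%) and 5787 were lower (35.5%) at an adjusted p under 0.05, 63.8% in all, so a count of called genes in a list has to be read against these shares. The values of the 2 groups did not overlap for 77.9% of genes (35% higher in the cells, 42.9% lower). The median log2 difference over all genes tested was -0.23. Among called genes whose values were measured on both sides, 1472 were at least 4-fold higher and 2234 at least 4-fold lower in the cells. A further 830 of the genes called higher were below background in all 3 livers, and 1078 of those called lower were below background in both samples of cells. For these, the change is given as a bound, the bright group's mean over the dimmest level that the other arrays could measure.

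The 15 largest rises included many genes known from B cells. Fcmr (probe at chr1:132708225-132708284, mm8) stood at 6.41 and 6.80 in the inflammatory cells, against -2.12, -2.06 and -2.54 in the livers. The groups lay far apart, with a log2 difference of 8.85 ± 0.61 (SE; adjusted p = 5.25e-08), or 461-fold. Hvcn1, the voltage-gated proton channel of leukocytes, stood at 5.49 and 5.76 in the cells, against -3.31, -3.14 and -3.26 in the livers (probe at chr5:122502589-122502648, mm8), a log2 difference of 8.86 ± 0.57 (SE; adjusted p = 2.70e-08). Of the others among the 15 largest, Tnfrsf13c (7.75) encodes the BAFF receptor, H2-Oa (7.72) an MHC class II chaperone and Ms4a1 (7.16) CD20, all as log2 differences. Ighm, the heavy chain of IgM, was 7.23 higher on the log2 scale, Iglv1, a light chain variable segment, 7.20, and Ccr7, the homing receptor of naive lymphocytes, 7.39. Def6 (7.30), an exchange factor for small GTPases in lymphocytes, Mef2c (7.15), a transcription factor, and Fcrla (at least 168-fold higher) belong to them too, as do LOC207685 (8.12), 2010309G21Rik (8.01) and A530032D15Rik (7.13), whose roles are not given here. Probes of immunoglobulin segments can take up transcripts of related segments, so Iglv1 may stand for several.

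The largest falls mixed secreted, inflammatory and metabolic genes of the liver. Saa2 (probe at chr7:46622207-46622266, mm8) stood at -1.38 and -0.41 in the inflammatory cells, against 10.87, 10.32 and 10.64 in the livers. Both samples of cells lay far below all 3 livers, with a log2 difference of -11.51 ± 1.63 (SE; adjusted p = 4.14e-05). Its neighbour in the family, Saa1, differed by -8.83, and the 2 transcripts are alike enough that a probe may take up both. Steap4, a metalloreductase, was at least 1661-fold lower (limma, adjusted p = 2.81e-06). Rnd1, an atypical small GTPase, differed by -9.53, Iigp1, an interferon-inducible GTPase, by -9.22, and Il1r1, the signalling receptor of interleukin-1, by -8.88. Serpina3n (-8.75) is an acute phase protease inhibitor, and Cps1 (-8.94) catalyses the first step of the urea cycle. Baat (-8.44) conjugates bile acids, Abcg5 (-8.47) exports sterols into bile, Cldn2 (-8.59) is a tight junction protein and Gbp6 (-8.46) an interferon-inducible GTPase. Tlcd4 (-8.72) and 2010003K11Rik (at least 474-fold lower) were among the 15 as well.

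**Figure D1:**
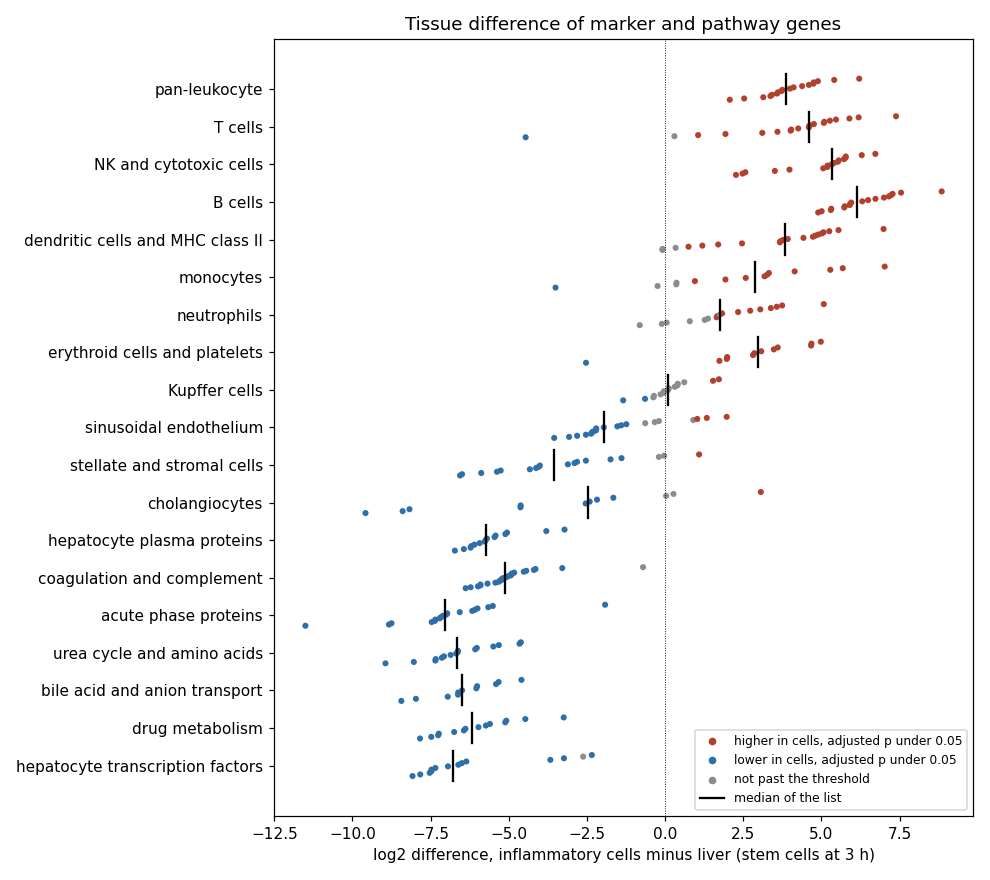
Log2 difference, inflammatory cells minus liver, of each member of 19 gene lists (1 dot a gene, colour by the call at an adjusted p under 0.05), with the median of each list as a bar. Lymphocyte lists lie to the right, with B cells at a median of 6.13, hepatocyte lists to the left, with acute phase proteins at -7.06, and Kupffer cell genes at a median of 0.10.

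Normexp background correction brought the medians of several of these lists nearer 0 by over 1.5 times without turning their sign. They became 2.83 for T cells, 3.11 for NK and cytotoxic cells, 2.28 for dendritic cells and MHC class II, -3.25 for hepatocyte transcription factors, -1.56 for stellate and stromal cells, -1.57 for cholangiocytes and -1.02 for sinusoidal endothelium.

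The cells carried the transcripts of leukocytes. All 18 genes shared by leukocytes were higher in the cells, with a median log2 difference of 3.87 (all genes: -0.23). Ptprc, CD45, stood at 5.92 and 5.94 in the cells, against 1.59, 1.68 and 1.38 in the livers, and the groups did not overlap, with a log2 difference of 4.38 ± 0.23 (SE; adjusted p = 4.84e-09). Coro1a, a regulator of actin in leukocytes, showed the largest rise of the list, 6.21 ± 0.24 (SE; adjusted p = 4.64e-10). Lcp1, L-plastin, showed the smallest at 2.07. The livers were not free of them: all 18 were above background in at least 1 liver.

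Among the cell type lists higher in the cells, B cell genes had the largest median. All 18 were higher in the cells, with a median of 6.13. Cd79b, a chain of the B cell receptor complex, stood at 6.40 and 6.53 in the cells, against -0.60, -0.37 and -0.64 in the livers, a difference of 7.0 ± 0.48 (SE; adjusted p = 4.63e-08). Its groups did not overlap. Pax5, the factor that commits B cells, was at least 42.5-fold higher (limma, adjusted p = 1.89e-06) and Blk, a Src family kinase, at least 16.5-fold higher (limma, adjusted p = 2.72e-06), with all livers below background.

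NK and cytotoxic genes were higher throughout: 17 of 17, with a median of 5.33. Gzma, granzyme A, stood at 5.39 and 5.16 in the cells, against -0.72, -0.36 and -0.43 in the livers, and its difference was 5.78 ± 0.23 (SE; adjusted p = 1.42e-09). Klrd1, CD94, rose most among those measured on both sides (6.73). Prf1, perforin (5.40), Il2rb (5.53) and Fasl, the ligand of the death receptor Fas (5.06), rose by similar amounts, while Gzmb, granzyme B, rose least among the well measured ones (2.27). Ncr1, NKp46, was at least 22.6-fold higher and Klre1 at least 19.3-fold higher.

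Of 20 T cell genes, 18 were higher in the cells and 1 was lower, with a median of 4.60. Thy1 stood at 5.02 and 5.26 in the cells, against 0.76, 0.33 and 0.41 in the livers, a difference of 4.64 ± 0.23 (SE; adjusted p = 2.95e-09). Cd3g, Cd3e and Cd3d, of the T cell receptor complex, differed by 4.61, 1.93 and 5.27, and Lck, the kinase that starts its signal, by 4.60. Il7r was at least 22.5-fold higher. Cd8a (4.02 ± 0.49 (SE; adjusted p = 1.03e-05)) and Cd8b1 (5.08) were higher, the latter with 1 of its 2 probes of this sign. Cd4 differed by 0.30 ± 0.29 (SE; adjusted p = 0.378), which did not pass the test. It was dim in both tissues, at -3.60 and -3.33 in the cells, against -3.62, -3.93 and -3.72 in the livers. Its probe therefore says little about T cells that carry Cd4.

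Myeloid and antigen presentation genes were split by list. Antigen presentation stood with the lymphocyte genes: 17 of 20 dendritic and MHC class II genes were higher in the cells and none was lower, with a median of 3.85. Whether B cells or dendritic cells carried the MHC class II transcripts was not tested. H2-Ab1 stood at 8.61 and 8.74 in the cells, against 3.55, 3.74 and 3.53 in the livers, a difference of 5.07 ± 0.28 (SE; adjusted p = 5.95e-09), and the invariant chain Cd74 (4.90), the transactivator Ciita (4.43) and H2-Aa (4.80) moved alike. Itgax, CD11c, was 5.55 higher and Siglech, of plasmacytoid dendritic cells, at least 26.2-fold higher. Genes of cross-presenting dendritic cells parted. Clec9a was at least 5.49-fold higher (limma, adjusted p = 4.95e-06), with all livers below background. Xcr1 (-0.09 ± 0.33 (SE; adjusted p = 0.832)) and Batf3 (-0.08 ± 0.66 (SE; adjusted p = 0.922)) did not pass the test.

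Among monocyte genes 10 of 14 were higher and 1 was lower (median 2.88). Ccr2, the receptor that brings monocytes out of the marrow, stood at 0.99 and 1.77 in the cells, against -4.30, -4.14 and -3.28 in the livers, a difference of 5.28 ± 0.47 (SE; adjusted p = 5.32e-07). F13a1, a coagulation factor chain of monocytes and platelets, was at least 108-fold higher (limma, adjusted p = 1.87e-06), and Lyz2, lysozyme, was 3.18 higher on the log2 scale. Cd14, a co-receptor for endotoxin, was the exception: it stood at 2.39 and 2.05 in the cells, against 5.51, 5.83 and 5.84 in the livers, a difference of -3.50 ± 1.03 (SE; adjusted p = 0.00943), though it missed the threshold without cells No. 989 (-3.33, adjusted p = 0.0557). Neutrophil genes were higher for 10 of 17 (median 1.76), among them Mpo, myeloperoxidase (5.08), Padi4 (3.74), Retnlg (3.38) and Mmp9 (3.04). S100a8 (1.27 ± 0.67 (SE; adjusted p = 0.115)), S100a9 (1.37 ± 0.61 (SE; adjusted p = 0.0672)) and Cxcr2 (-0.81 ± 0.72 (SE; adjusted p = 0.34)) did not pass.

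Genes of Kupffer cells, the resident macrophages of the liver, were mostly not called in either direction, a count that depended on the scaling. Of 15, 2 were higher and 2 lower, with a median log2 difference of 0.10 that turned negative with normexp background correction (-0.06). With quantile normalization 7 were higher and 1 lower, with a median of 0.80. Cd5l stood at 5.85 and 5.45 in the cells, against 5.38, 5.35 and 5.05 in the livers, and its difference of 0.39 ± 0.40 (SE; adjusted p = 0.401) did not pass the test. Vsig4 (0.31 ± 0.59 (SE; adjusted p = 0.662)) and C1qb (0.10 ± 0.33 (SE; adjusted p = 0.803)) did not pass either. Adgre1, F4/80, which other macrophages carry too, was 1.72 higher and Csf1r, the receptor for macrophage colony-stimulating factor, 1.53. Mrc1, the mannose receptor, fell by 1.34 on the log2 scale.

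Transcripts of hepatocytes were lower in the inflammatory cells, and still measurable there. All 15 genes of plasma proteins were lower, with a median of -5.74, and all 15 were above background in at least 1 sample of cells. Alb stood at 6.59 and 7.92 in the cells, against 10.80, 10.20 and 10.41 in the livers, a difference of -3.22 ± 0.46 (SE; adjusted p = 4.70e-05). It changed least among the 15, and Fabp1, the fatty acid binding protein of liver, most, with values of 2.81 and 3.23 in the cells, against 10.0, 9.42 and 9.80 in the livers and a difference of -6.72 ± 0.27 (SE; adjusted p = 5.80e-10). Sample No. 989 was above sample No. 987 for all 15 of these genes, by a median of 1.19, while the median difference of the 2 samples over all genes was -0.01. In bulk samples, fewer cells of a type and less RNA per cell cannot be told apart, and the part of hepatocyte RNA in other differences was not tested.

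The same order between the 2 samples of cells held for other secreted and transport proteins and not for all hepatocyte genes. No. 989 was higher for 22 of 24 coagulation and complement genes (median 1.11), 16 of 18 acute phase genes (median 1.19), 13 of 14 genes of drug metabolism (median 1.52) and 11 of 11 of bile acid and anion transport (median 1.55). Of 16 urea cycle and amino acid genes, 7 were higher in No. 989, with a median of 0.00 between the samples. T cell genes went with No. 989 as well, 20 of 20 with a median of 0.66.

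Acute phase genes were lower in the cells throughout. All 18 were lower in the cells, with a median of -7.06. Besides Saa2 and Saa1, Hamp, the iron hormone hepcidin, stood at 0.23 and 1.71 in the cells, against 8.51, 7.97 and 8.48 in the livers, a difference of -7.35 ± 0.43 (SE; adjusted p = 1.11e-08). Lbp, which binds endotoxin, differed by -7.11, Orm1 by -7.0, Crp by -6.97 and Hp, haptoglobin, by -5.66. Of 24 coagulation and complement genes 23 were lower (median -5.13). Fga, a fibrinogen chain, stood at 0.29 and 1.30 in the cells, against 7.14, 7.24 and 7.14 in the livers, a difference of -6.38 ± 0.34 (SE; adjusted p = 4.39e-09), and C3, the central complement component, differed by -4.19. C6 (-0.70 ± 0.43 (SE; adjusted p = 0.172)) was the member that did not pass.

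Metabolic functions of the liver followed. All 14 drug metabolism genes, all 11 bile acid and anion transporters and all 16 urea cycle and amino acid genes were lower in the cells, with medians of -6.18, -6.50 and -6.66. Cps1 stood at -2.61 and -1.65 in the cells, against 6.99, 6.85 and 6.60 in the livers. Its difference of -8.94 ± 0.46 (SE; adjusted p = 3.76e-09) was the largest of the 3 lists. Cyp2e1, which oxidises ethanol, differed by -7.26, Abcb11, the bile salt export pump, by -6.62, Slc10a1, the bile acid importer, by -6.50 and Sds, serine dehydratase, by -8.04. Of 14 glucose and fatty acid genes 13 were lower (median -5.22), and G6pc (1.59 ± 1.11 (SE; adjusted p = 0.225)) did not pass.

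Transcription factors that define hepatocytes went with these genes. Of 14, 13 were lower in the cells, with a median of -6.78, and 6 were below background in both samples of cells. Hnf4a stood at -3.95 and -3.22 in the cells, against 4.11, 3.86 and 3.71 in the livers, a difference of -7.47 ± 0.46 (SE; adjusted p = 1.66e-08). Foxa2 was at least 85.2-fold lower (limma, adjusted p = 4.67e-10), Foxa3 at least 91.2-fold lower and Onecut1 at least 126-fold lower. Cebpa, which myeloid cells also use, changed less (-3.24). Of 19 leukocyte factors 11 were higher and 2 lower (median 2.70). Ikzf1, Ikaros, stood at 4.59 and 4.46 in the cells, against -1.69, -1.59 and -2.11 in the livers, a difference of 6.32 ± 0.31 (SE; adjusted p = 2.73e-09). Irf4 (5.36) and Tcf7 (4.75) were higher on the log2 scale, Lef1 was at least 59.1-fold higher and Eomes, a factor of cytotoxic cells, at least 23.5-fold higher. Cebpb, of the acute phase response, was lower in the cells (-2.13). Irf8 (0.43 ± 1.08 (SE; adjusted p = 0.743)) did not pass.

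Transcripts of other resident cells of the liver were mostly lower in the inflammatory cells. Of 18 stellate and stromal genes 15 were lower, with a median of -3.56. Dcn, decorin, stood at 0.00 and 0.87 in the cells, against 6.58, 6.11 and 6.26 in the livers, a difference of -5.88 ± 0.30 (SE; adjusted p = 3.81e-09), and Reln, reelin of stellate cells, differed by -5.38. Rgs5, of pericytes, was at least 30.1-fold lower. Of 21 sinusoidal endothelial genes 14 were lower and 3 higher (median -1.96). Lyve1 (-3.55), Stab2 (-2.53) and Ptprb (-2.81) were among the lower ones, and Pecam1 (1.33), which leukocytes and platelets also carry, and Vwf (1.97), also of platelets, among the higher. Of 12 genes of bile duct cells 9 were lower (median -2.48). They include Krt8 (-8.40) and Krt18 (-8.18), the keratins that hepatocytes share, and Sox9, which was at least 175-fold lower.

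Red cell and platelet transcripts were also higher in the cells. Of 12 erythroid and platelet genes 11 were higher in the cells, with a median of 2.96. Hba-a1, alpha globin, stood at 11.09 and 10.33 in the cells, against 7.76, 8.10 and 7.83 in the livers, a difference of 2.81 ± 0.25 (SE; adjusted p = 6.28e-07); the red cell enzyme Alas2 differed by 3.48. Platelet genes were higher, with Gp9 at 1.97 and 3.32 in the cells, against -2.25, -2.49 and -2.26 in the livers, a difference of 4.98 ± 0.44 (SE; adjusted p = 5.21e-07), Ppbp at a difference of 4.68 and Pf4 of 3.07. Of the 2 samples of cells, No. 987 had the more Hba-a1 and Alas2, and No. 989 the more Gp9, Ppbp and Pf4. Klf1, an erythroid transcription factor, was lower (at least 3.6-fold lower). The part of red cells and platelets in other differences was not tested.

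**Figure D2:**
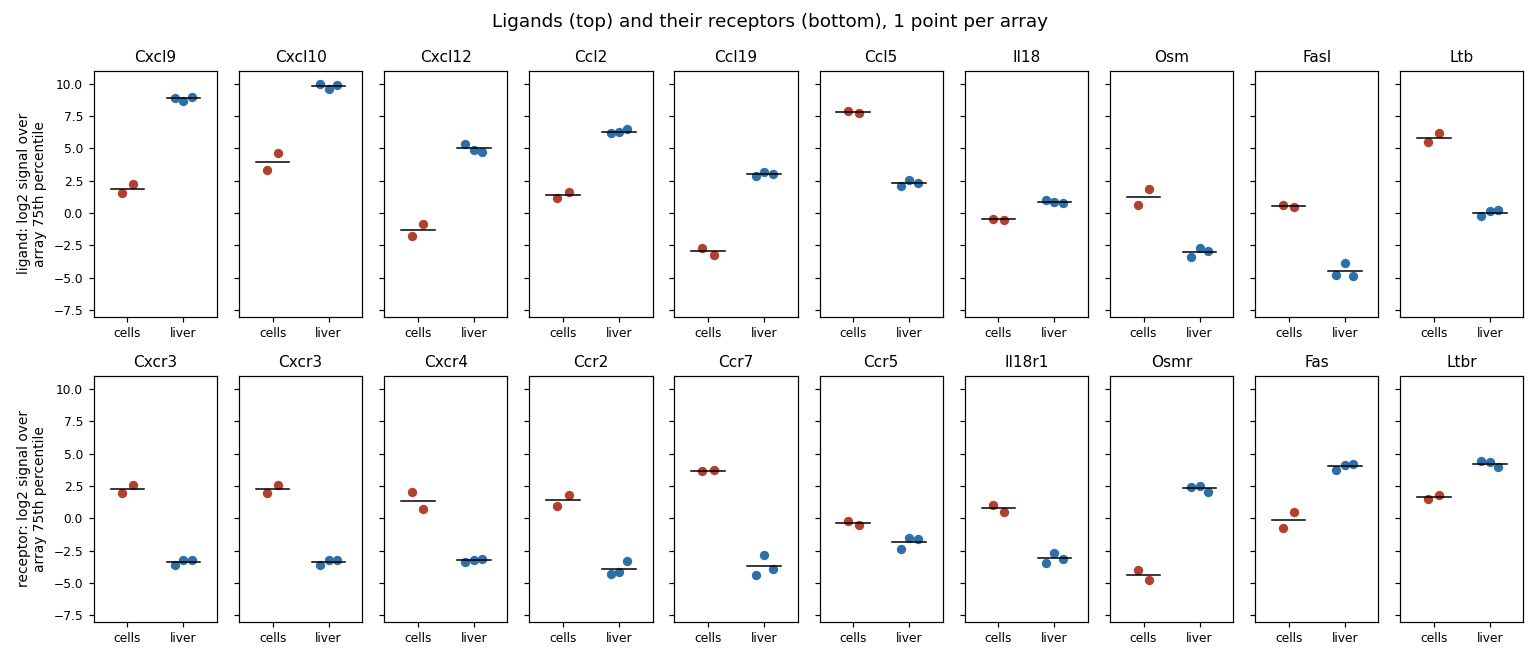
Log2 level relative to the array's 75th percentile of 10 ligands and of a receptor for each, in the 2 samples of inflammatory cells and, to their right, the 3 livers (1 point a sample). Cxcl9 stood at 1.53 and 2.23 in the cells and at 8.67 or above in the livers, while its receptor Cxcr3 stood at 1.95 and 2.54 in the cells and at -3.19 or below in the livers.

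In the chemokine pairs, ligands were more often higher in liver and receptors more often higher in the cells (all genes: 35.5% lower and 28.3% higher in the cells). Among 29 textbook pairs of 29 ligands and 16 receptors, the ligand was higher in liver and the receptor higher in the cells in 12, both were higher in the cells in 4, and no pair had its receptor called higher in liver. In 5 pairs the ligand was higher in liver and the receptor was not called. The ligand was higher in the cells without a call for the receptor in 2, the receptor alone was higher in the cells in 4, and neither was called in 2. Several pairs share a receptor, so they are not independent of each other. Ccr1, counted as not called, was below background in both tissues. Whether true pairs lay on opposite sides more often than ligands and receptors matched at random was not tested.

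Of 11 CXC chemokines 8 were lower in the cells and 1 higher, with a median of -5.40. With normexp background correction 6 were lower, with a median of -1.23. Cxcl9, which interferon-gamma induces and Cxcr3 recognises, stood at 1.53 and 2.23 in the cells, against 8.93, 8.67 and 9.01 in the livers, a difference of -6.99 ± 1.58 (SE; adjusted p = 0.00173). Cxcl10 stood at 3.32 and 4.63 in the cells, against 9.96, 9.61 and 9.92 in the livers and differed by -5.85 ± 1.91 (SE; adjusted p = 0.0167), but missed the threshold without cells No. 987 (-5.20, adjusted p = 0.099). Cxcl11, the third ligand of Cxcr3, differed by -7.38. Cxcr3 itself, a receptor of activated T and NK cells, stood at 1.95 and 2.54 in the cells, against -3.63, -3.19 and -3.23 in the livers, a difference of 5.59 ± 0.31 (SE; adjusted p = 7.16e-09). Cxcl1, which attracts neutrophils through Cxcr2, differed by -8.18 ± 1.76 (SE; adjusted p = 0.00122), and Cxcr2 (-0.81 ± 0.72 (SE; adjusted p = 0.34)) was not called. Cxcl12, which retains cells through Cxcr4, stood at -1.78 and -0.81 in the cells, against 5.33, 4.89 and 4.76 in the livers, a difference of -6.29 ± 0.51 (SE; adjusted p = 2.27e-07), and Cxcr4 was 4.63 higher. Cxcl13, the B cell chemokine, was the one CXC ligand higher in the cells (2.09), as was its receptor Cxcr5 (4.72).

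CC chemokines were divided. Of 19 CC and other chemokines 10 were lower in the cells (52.6%, all genes 35.5%) and 5 higher (26.3%, all genes 28.3%), with a median of -2.31. Without cells No. 987 or without cells No. 989, 6 were lower and 4 higher. Ccl5, RANTES of T and NK cells, stood at 7.92 and 7.73 in the cells, against 2.10, 2.53 and 2.35 in the livers, a difference of 5.50 ± 0.22 (SE; adjusted p = 5.75e-10). Ccl3 (3.51), Ccl6 (2.97) and Xcl1 (2.78) were higher too. On the side of the liver, Ccl11, eotaxin, was at least 105-fold lower (limma, adjusted p = 0.000618), and its receptor Ccr3 was 4.88 higher in the cells. Ccl19 stood at -2.70 and -3.24 in the cells, against 2.89, 3.15 and 3.02 in the livers, a difference of -5.99 ± 0.53 (SE; adjusted p = 5.49e-07), against the rise of 7.39 for its receptor Ccr7. Ccl2, which calls Ccr2 monocytes, differed by -4.89 ± 1.56 (SE; adjusted p = 0.0149), and missed the threshold without cells No. 987 (-4.65, adjusted p = 0.0751) or cells No. 989 (-5.14, adjusted p = 0.0524). Of 20 receptors 12 were higher in the cells (median 2.25), and the 2 lower ones were the scavenging receptors Ackr1 (-3.24) and Ackr2 (-2.22).

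Cytokines of T cells were in part higher in the cells. Of 19, 9 were called higher and 1 lower, with a median of 1.80, and several of the calls lay near background. The count of higher genes was 5 without cells No. 989, 14 with only the 5 arrays of both groups and 13 with the 10 arrays at 5 h. Ltb, lymphotoxin beta, stood at 5.47 and 6.17 in the cells, against -0.25, 0.14 and 0.24 in the livers, a difference of 5.78 ± 0.39 (SE; adjusted p = 4.14e-08), Lta differed by 3.86 and Osm, oncostatin M, by 4.23. Ifng, interferon-gamma, stood at 4.05 and 4.37 in the cells, against 2.61, 2.86 and 2.11 in the livers, and its difference of 1.69 ± 0.83 (SE; adjusted p = 0.0927) did not pass the test. Tnf (1.51 ± 0.94 (SE; adjusted p = 0.176)), Il2 (1.51 ± 0.94 (SE; adjusted p = 0.177)) and Il4 (2.74 ± 1.15 (SE; adjusted p = 0.0523)) did not pass. Il3, the one called lower, was below background in both groups, so no fold is given, and its call was lost without cells No. 989 (-0.81, adjusted p = 0.124). Of 17 activation genes 13 were higher and none lower (median 2.77). Nr4a1, induced by antigen receptors, stood at 8.23 and 7.62 in the cells, against 1.62, 2.29 and 0.92 in the livers, a difference of 6.32 ± 0.40 (SE; adjusted p = 2.39e-08). Egr3 was at least 77.8-fold higher, Cd69 differed by 4.95, Tnfrsf18, GITR, by 4.15 and Havcr2, TIM-3, by 3.80. Il2ra, CD25 (-0.07 ± 0.73 (SE; adjusted p = 0.935)), and Pdcd1, PD-1 (0.81 ± 0.82 (SE; adjusted p = 0.406)), did not pass.

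Receptors for cytokines were found on both sides. Of 31, 13 were higher in the cells (41.9%, all genes 28.3%) and 11 lower (35.5%, all genes 35.5%). Their median of 0.09 turned negative without cells No. 989 (-0.02). Receptors of lymphoid cytokines were among the higher ones, such as Il2rg, the common gamma chain (3.90), Il21r (4.12), Il12rb1 (3.31), Il18r1 (3.86) and Il10ra (2.56). Receptors for interleukin-1 and oncostatin M, which drive the acute phase response, were among the lower ones. Il1r1 stood at -3.81 and -3.94 in the cells, against 4.98, 5.16 and 4.87 in the livers, a difference of -8.88 ± 0.51 (SE; adjusted p = 8.97e-09), and its partner Il1rap differed by -5.16. Osmr, the receptor of oncostatin M, was at least 106-fold lower (limma, adjusted p = 7.26e-07), and Lifr differed by -4.99. Fas stood at -0.76 and 0.47 in the cells, against 3.74, 4.15 and 4.16 in the livers, a difference of -4.16 ± 0.59 (SE; adjusted p = 4.12e-05), on the opposite side from its ligand, and Tnfrsf1a, the main receptor of tumour necrosis factor, differed by -3.02. The 2 chains of the interferon-gamma receptor parted: Ifngr1 was 2.44 ± 0.27 (SE; adjusted p = 4.19e-06) and Ifngr2 -1.35 ± 0.31 (SE; adjusted p = 0.00205).

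Among 16 myeloid and tissue cytokines 3 were higher and 7 lower (median -0.93), and with normexp 4 were lower, with a median of -0.09. Il1b stood at 2.36 and 2.53 in the cells, against 2.24, 2.24 and 2.32 in the livers, and its difference of 0.18 ± 1.15 (SE; adjusted p = 0.898) did not pass. Il33, an alarmin of tissue cells, was at least 21.5-fold lower (limma, adjusted p = 1.73e-07). The 2 chains of interleukin-27 lay apart, with Il27 at -2.58 ± 0.29 (SE; adjusted p = 5.44e-06) and Ebi3 at 2.90 ± 0.20 (SE; adjusted p = 4.79e-08). Il18 was -1.36, on the opposite side from Il18r1. Adhesion molecules divided by their cells, with 9 of 14 higher and 3 lower (median 3.32). Itgb7, an integrin of lymphocytes, stood at 5.16 and 5.41 in the cells, against -1.74, -1.61 and -1.80 in the livers, a difference of 7.0 ± 0.34 (SE; adjusted p = 2.50e-09). Itga4 (5.16) and Selplg, the ligand of P-selectin (5.32), were higher, while Sele, E-selectin of endothelium, was at least 23.4-fold lower. Vcam1, the ligand of integrins with the alpha 4 chain, differed by -4.52 ± 1.09 (SE; adjusted p = 0.00271) and missed the threshold without cells No. 989 (-3.34, adjusted p = 0.05).

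Many genes that interferons induce were lower in the inflammatory cells. Of 20 interferon-gamma response genes 11 were lower and 1 higher (median -2.50); with quantile normalization the median was -1.60. Iigp1 stood at -0.08 and -0.07 in the cells, against 9.36, 8.92 and 9.16 in the livers. The gap of -9.22 ± 0.64 (SE; adjusted p = 5.51e-08) was the widest of the list. Gbp2, a guanylate-binding protein (-5.36), Igtp (-4.27) and Irgm1 (-4.06) were lower as well. Irf1 (0.18 ± 1.23 (SE; adjusted p = 0.904)), whose 2 probes disagreed in sign, and the antigen processing genes Psmb9 (0.04 ± 0.41 (SE; adjusted p = 0.934)) and Tapbp (-0.02 ± 0.24 (SE; adjusted p = 0.959)) did not pass. Of 24 type I interferon response genes 15 were lower and 2 higher (median -2.28). Ifit1 stood at -2.13 and -2.08 in the cells, against 3.72, 3.90 and 3.89 in the livers, a difference of -5.94 ± 0.62 (SE; adjusted p = 2.41e-06), and Usp18 (-4.66), Mx2 (-4.23) and Isg15 (-3.99) went the same way, while Irf7 was lower by less (-1.34).

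**Figure D3:**
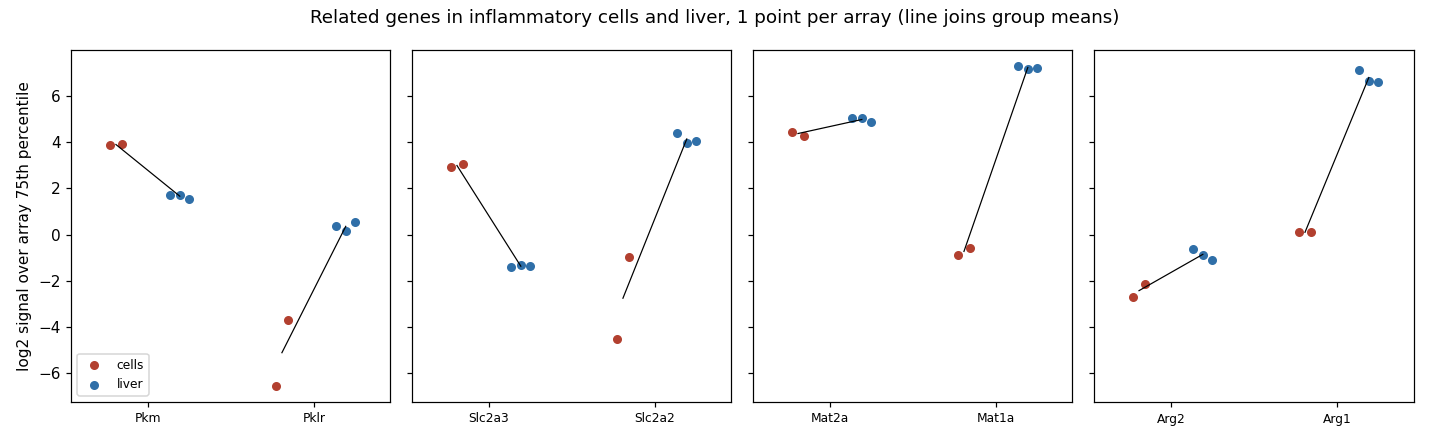
Log2 level relative to the array's 75th percentile of 4 pairs of related genes, in the 2 samples of inflammatory cells and, to their right, the 3 livers (1 point a sample). Pkm stood at 3.88 and 3.89 in the cells and at 1.71 or below in the livers, and its liver relative Pklr at -3.67 or below in the cells and at 0.15 or above in the livers.

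Pyruvate kinases and glucose transporters with a liver form and a general form split between the cells and the liver. Pkm, the pyruvate kinase of most tissues, stood at 3.88 and 3.89 in the cells, against 1.70, 1.71 and 1.55 in the livers, a difference of 2.23 ± 0.38 (SE; adjusted p = 0.000186). Pklr, the pyruvate kinase of liver and red cells, stood at -6.53 and -3.67 in the cells, against 0.36, 0.15 and 0.55 in the livers, a difference of -5.46 ± 0.61 (SE; adjusted p = 4.80e-06). Slc2a3, the glucose transporter GLUT3, was 4.35 ± 0.38 (SE; adjusted p = 4.46e-07), and Slc2a2, GLUT2 of hepatocytes, -6.88 ± 0.91 (SE; adjusted p = 2.16e-05). Gls2, liver-type glutaminase, was -6.65 ± 0.45 (SE; adjusted p = 3.85e-08). Mat1a, the liver enzyme for S-adenosylmethionine, differed by -7.94, and its general relative Mat2a by -0.61 ± 0.25 (SE; adjusted p = 0.0491), a call that was lost whichever 1 of the 5 arrays was left out (adjusted p from 0.061 to 0.195). Arg1, arginase of the urea cycle, differed by -6.68 and Arg2 by -1.57 ± 1.18 (SE; adjusted p = 0.26).

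Proliferation genes were higher in the cells: 13 of 18 against 1 lower, with a median of 2.04. Mcm5, of the replicative helicase, stood at 2.07 and 2.33 in the cells, against -1.47, -1.90 and -1.51 in the livers, a difference of 3.82 ± 0.43 (SE; adjusted p = 4.90e-06), and Mki67 (2.10), Plk1 (2.40) and Ccnd3 (1.99) were higher. Ccnd1, the cyclin of hepatocytes entering the cycle, was lower (-1.82). Of 14 immediate early genes 8 were higher and 3 lower (median 1.52, with 5 higher and 1 lower without cells No. 987, and 9 higher and 1 lower with a median of 2.48 under quantile normalization): Dusp2, a phosphatase of activated lymphocytes, stood at 7.72 and 7.63 in the cells, against 1.60, 2.49 and 1.58 in the livers, a difference of 5.79 ± 0.29 (SE; adjusted p = 2.77e-09), Fosb differed by 6.06, Klf4 by 4.63 and Fos by 3.66, while Jun was lower (-1.49).

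Cell death genes were mixed, near the shares of all genes. Of 15, 5 were higher (33.3%, all genes 28.3%) and 6 lower (40%, all genes 35.5%), with a median of -0.56, positive with normexp (0.05). The higher genes were 3 without liver No. 1, without liver No. 3 or without cells No. 989. Bcl2, which protects lymphocytes, stood at 3.02 and 3.51 in the cells, against -1.42, -1.08 and -1.29 in the livers, a difference of 4.53 ± 0.27 (SE; adjusted p = 1.23e-08). Of the necroptosis genes, Ripk3 was higher (2.62 ± 0.21 (SE; adjusted p = 1.78e-07)) and its partners Mlkl (-4.04 ± 0.52 (SE; adjusted p = 1.80e-05)) and Ripk1 (-2.12) were lower. Of 13 NF-kB genes 2 were higher and 1 lower (median 0.50, and 5 and 3 with the 10 arrays at 5 h, or 4 and 3 with only the 5 arrays of both groups): Rel was at least 8.38-fold higher and Traf1 differed by 3.17, while Nfkbia (0.71 ± 0.53 (SE; adjusted p = 0.254)) and Tnfaip3 (0.84 ± 1.60 (SE; adjusted p = 0.666)) did not pass. Among 17 innate sensors 6 were higher and 6 lower (35.3% each), also near the shares of all genes. Their median of -0.44 reached 0.00 with quantile normalization. Tlr1 (5.09), Tlr7 (2.06) and the adaptor Pycard (3.84) were higher, and Tlr3 (-2.44) and Nod1 (-1.39) lower. Of 16 stress genes 3 were higher and 4 lower, with a median of -0.31, positive with quantile normalization (0.35). Xbp1, which secretory cells need, was lower (-4.28 ± 0.37 (SE; adjusted p = 4.41e-07)).

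Genes of iron and metal handling leaned to the liver, with 8 of 12 lower and 1 higher (median -4.52). With normexp 7 were lower and none higher, with a median of -1.13, and without cells No. 987 the median was -3.68. Mt1, metallothionein 1, stood at 4.05 and 2.70 in the cells, against 10.90, 10.19 and 10.54 in the livers, a difference of -7.17 ± 0.57 (SE; adjusted p = 1.99e-07), Slc39a14, the zinc and iron importer ZIP14, differed by -7.10 and Tfr2, the iron sensor of hepatocytes, by -4.96. Genes of adipose stromal cells and their mediators, the kind of cell injected, were 7 higher and 7 lower of 14, with a median of -0.88 that turned positive with normexp (0.185) and with probes well above background on all 5 arrays (1.38). S100a4 stood at 6.55 and 7.19 in the cells, against 0.19, 0.13 and -0.24 in the livers, a difference of 6.85 ± 0.30 (SE; adjusted p = 8.75e-10), and Lgals1 (3.28) and Vim (2.96), which leukocytes also express, were higher, while Nt5e, CD73 (-3.33), Fn1 (-4.20) and Postn (-5.89) were lower. The same list in mice without stem cells had 6 higher and 7 lower, and no member passed the test of the difference between the contrasts.

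**Figure D4:**
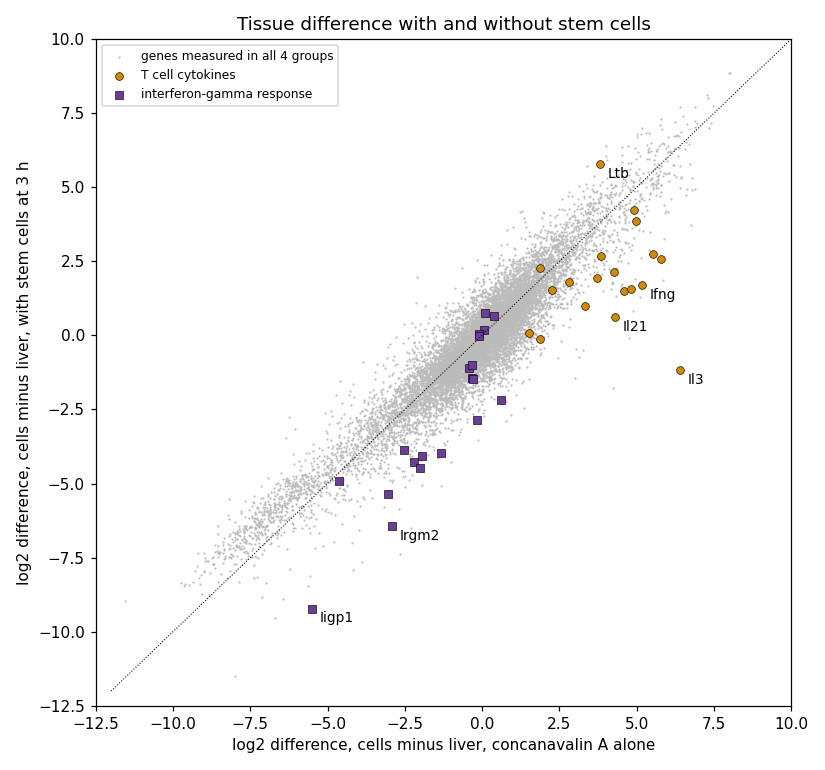
Log2 difference, inflammatory cells minus liver, with stem cells (vertical) against concanavalin A alone (horizontal), 1 point a gene, over the 12574 genes measured in all 4 groups. These points follow the diagonal (r = 0.941). Members of the T cell cytokine and interferon-gamma response lists are drawn over them, whether or not measured in all 4 groups. Named genes below the diagonal include Irgm2 and Il21, and Il21 is not among the 12574 genes.

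Most genes called in the tissue contrast with stem cells were called in the same direction in mice that received concanavalin A alone. There, 4776 genes were higher in the cells (29.3%) and 5173 lower (31.7%), 61% in all, and the 2 contrasts, which share no array, correlated at 0.941 over the 12574 genes measured in all 4 groups, given as a description since all the arrays of cells lay on 1 slide. Called in the same direction in both were 3766 genes higher in the cells and 4604 lower, while 83 were called in opposite directions. A further 1957 genes were called with stem cells and 1496 without them alone, which does not show that they differed. The difference of the 2 contrasts, tested directly, passed for 81 genes in the direction of a higher contrast with stem cells (0.497%) and for 286 in the other (1.75%), 2.25% in all. Higher and lower refer here to cells minus liver, and not to the level in either tissue. Of these, 59 and 262 were measured in all 4 groups, and for the others the size of the difference rests in part on values below background. These counts depended on single arrays: they were 28 and 104 without liver No. 1, 29 and 171 without liver No. 2, 16 and 97 without liver No. 3, 30 and 53 without cells No. 987, and 81 and 272 without cells No. 989. Among the genes of the lists above, 1 passed in the higher direction and 11 in the lower one. Before adjustment, 2865 of the 16311 genes had a p under 0.05 for the difference (limma).

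Cytokine genes of T cells made up part of those whose contrast was lower with stem cells. Of the 19 T cell cytokines, 9 were higher in the cells than in liver with stem cells (median 1.80) and 16 without them (median 4.26), and the difference passed for 3 of them. The first count depended on single arrays and on the arrays fitted, from 5 without cells No. 989 to 14 with only the 5 arrays of both groups, and the counts were not tested against each other. Il21, a cytokine of follicular helper T cells, stood at -6.06 and -4.25 in the cells, against -5.22, -6.28 and -5.83 in the livers with stem cells, and without them at -1.12 and -2.49 in the cells, against -6.22, -6.15 and -5.89 in the livers. With stem cells both samples of cells lay near background. The contrasts differed by -3.66 ± 0.71 (SE; adjusted p = 0.0229), but not without liver No. 1 (-3.38, adjusted p = 0.0584), liver No. 3 (-3.69, adjusted p = 0.0606) or cells No. 987 (-2.75, adjusted p = 0.0926). Il17a differed by -3.24 ± 0.69 (SE; adjusted p = 0.0309), and not without liver No. 1 (-3.0, adjusted p = 0.0787), liver No. 3 (-3.33, adjusted p = 0.0675) or cells No. 987 (-2.94, adjusted p = 0.126). The livers were below background for Il21, Il17a and Il3 with and without stem cells, so these sizes are not exact. Il3 stood at -6.33 and -7.04 in the cells, against -5.82, -5.20 and -5.52 in the livers with stem cells, and without them at 0.34 and 0.44 in the cells, against -6.76, -5.71 and -5.55 in the livers, a difference of -7.56 ± 0.49 (SE; adjusted p = 2.39e-05) that passed without each array in turn. Ifng stood at 6.96 and 7.37 in the cells, against 1.62, 2.04 and 2.32 in the livers without stem cells, and the difference of its contrasts, -3.48 ± 1.17 (SE; adjusted p = 0.144), did not pass.

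Of the 17 activation and checkpoint genes, 13 were higher in the cells with stem cells (median 2.77) and all 17 without them (median 4.52). The difference passed for Il2ra, -4.81 ± 1.04 (SE; adjusted p = 0.0339), and Icos, -2.10 ± 0.39 (SE; adjusted p = 0.0197). Il2ra stood at -3.27 and -2.72 in the cells, against -2.79, -2.57 and -3.40 in the livers with stem cells, and without them at 1.97 and 0.57 in the cells, against -3.02, -4.02 and -3.34 in the livers. Icos missed the threshold without cells No. 987 (-2.04, adjusted p = 0.0808), and Il2ra whichever 1 of the 5 arrays was left out (adjusted p from 0.0576 to 0.126). Of the 4 probes of Il2ra, 2 had the sign given with stem cells. Interferon-gamma response genes were called lower in 11 of 20 with stem cells (median -2.50) and in 6 without them (median -0.38). Of these Irgm2 alone passed the test of the difference, -3.50 ± 0.78 (SE; adjusted p = 0.0377), and missed it whichever 1 of the 5 arrays was left out (adjusted p from 0.0572 to 0.133). Iigp1 differed by -3.73 ± 0.91 (SE; adjusted p = 0.054) and Cxcl9 by -2.79 ± 2.23 (SE; adjusted p = 0.561), neither past the threshold.

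Other genes past this test were of different kinds. Mat2a, the general enzyme for S-adenosylmethionine, stood at 4.44 and 4.27 in the cells, against 5.04, 5.02 and 4.84 in the livers with stem cells, and at 6.26 and 5.81 in the cells, against 4.60, 4.33 and 4.72 in the livers without them, a difference of contrasts of -2.09 ± 0.35 (SE; adjusted p = 0.0129). Krt7 was the one list member whose contrast was higher with stem cells (2.53 ± 0.60 (SE; adjusted p = 0.0486)). The contrasts of Il6st, the shared receptor chain gp130 (-2.04 ± 0.44 (SE; adjusted p = 0.0351)), Ccnd2 (-2.83 ± 0.67 (SE; adjusted p = 0.0494)) and Pcna (-1.06 ± 0.24 (SE; adjusted p = 0.0385)) were lower. Each of these 4 missed the threshold whichever 1 of the 5 arrays was left out. Ccr1, which was below background in both tissues with stem cells, differed by -3.23 ± 0.53 (SE; adjusted p = 0.0113). Among genes above background on at least 1 of the 5 arrays, the 10 with the smallest p came from no list. Il3, a list member below background on all 5, had a smaller adjusted p (limma, 2.39e-05). Eef1aknmt, a methyltransferase of the elongation factor eEF1A, differed by -3.66 ± 0.34 (SE; adjusted p = 0.000559), Trmt61b, a tRNA methyltransferase of mitochondria, by -2.84 ± 0.27 (SE; adjusted p = 0.000559) and Rnmt, the mRNA cap methyltransferase, by -1.98 ± 0.25 (SE; adjusted p = 0.00353). Rbm12, an RNA-binding protein, differed by -2.44 ± 0.24 (SE; adjusted p = 0.000559), Timm8a1 by -2.63 ± 0.27 (SE; adjusted p = 0.00101), Ppat, the entry enzyme of purine synthesis, by -2.90 ± 0.37 (SE; adjusted p = 0.00404) and the lipid genes Fitm2 and Selenoi by -2.52 ± 0.27 (SE; adjusted p = 0.00106) and -2.42 ± 0.28 (SE; adjusted p = 0.0018). Mtmr11 (2.69 ± 0.31 (SE; adjusted p = 0.0018)) and Pde4dip (2.15 ± 0.25 (SE; adjusted p = 0.0018)) were the 2 of these 10 whose contrast was higher with stem cells. The sizes for Trmt61b, Mtmr11 and Pde4dip are not exact, since the cells were below background for Trmt61b with stem cells, for Mtmr11 with and without them and for Pde4dip without them. In the contrast with stem cells, 2 of 6 probes of Rnmt and 1 of 2 probes of Eef1aknmt shared the sign of the probe used. Timm8a1, an import factor of mitochondria, stood at 0.67 and 1.05 in the cells, against 3.88, 3.73 and 3.58 in the livers with stem cells, and without them at 3.47 and 3.02 in the cells, against 3.44, 3.53 and 3.44 in the livers. With normexp background correction the test of the difference passed for 3 genes in all, each with a lower contrast with stem cells.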

How the data were processed

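RNA of hepatic inflammatory cells and of whole liver was labelled with Cy3 and hybridised to 1-colour Agilent mouse arrays. The deposited intensity of each spot is, per the file headers, the processed signal of Agilent Feature Extraction 10.5.1.1, with background subtracted and detrended and no normalization between arrays. The value table of the series was identical to these signals. Control spots (1639 an array) and spots marked as outliers (55 to 81 on the 5 arrays) were left out, log2 signals were scaled to the array's 75th percentile, and duplicate spots were averaged to 1 value a probe. Probes well above background on fewer than 2 of the 16 arrays were dropped, and each gene took its brightest remaining probe, by the mean of all arrays. Of 41174 probes, 23483 were named through RefSeq accessions, 6678 through current and 2887 through older symbols, 1826 kept the name of the array design and 6300 had none.

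All 16 arrays were fitted as 6 group means with limma 3.58.1 in R 4.3.3, leaving 10 residual degrees of freedom, and p-values were 2-sided and adjusted over all 16311 genes (Benjamini-Hochberg, threshold 0.05). Of these genes, 8 lacked a value on at least 1 of the 5 arrays and were fitted without it; 10920 had an unadjusted p under 0.05. In simulated data 200 genes were changed. The fit recovered 85 of 100 at a log2 change of 2 and 96 of 100 at 4, with 13 false calls. The simulated noise was independent between arrays, without a slide effect. Its variance did not allow for the 6 fitted group means and was too small. Most genes were left unchanged there, while 63.8% were called here. These figures therefore do not give the recovery or the false calls of this comparison. The small number of arrays limits the precision. Members, gene lists and ligand-receptor pairs were chosen with earlier results of these data known. Named are the 15 largest rises and falls and members of the lists. Also named are the 10 genes with the smallest p for the difference between contrasts, among genes above background on at least 1 of the 5 arrays. Alternatives covered the arrays fitted, filters, background, scaling, slide, scan number, array weights, probe choice and each array left out. Some genes that these rules would name are not reported here.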

Additional observations from a re-analysis of the deposited data

Results flagged for a closer look

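The log2 difference between inflammatory cells and liver, with stem cells minus without, passed the direct test of the difference (adjusted p under 0.05) for 22 of the genes named, which is why they are given here. Of genes in the lists, those of T cells and their receptors were Il3 (-7.56), Il2ra (-4.81), Il21 (-3.66), Il17a (-3.24) and Icos (-2.10). Ccr1, a chemokine receptor, gave -3.23, Irgm2, an interferon-inducible GTPase, -3.50, and Il6st, the receptor chain gp130, -2.04. The cell cycle genes Ccnd2 and Pcna gave -2.83 and -1.06, Mat2a -2.09 and the keratin Krt7 2.53. Among the genes named for a small p outside the lists, the differences were -3.66 for Eef1aknmt, -2.84 for Trmt61b, -2.44 for Rbm12, -2.63 for Timm8a1, -2.52 for Fitm2, -2.42 for Selenoi, -1.98 for Rnmt and -2.90 for Ppat. Mtmr11 (2.69) and Pde4dip (2.15) went the other way. Il3 and Ccr1 were below background in both tissues with stem cells, and for Il21, Il17a, Trmt61b, Mtmr11 and Pde4dip 1 tissue was below background in at least 1 of the contrasts, so these sizes are not exact. No group held the 4 samples that a check for outlying samples needs.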

How the results depend on the processing

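No paired analysis was possible because the inflammatory cells and the livers share no replicate numbers. The contrast of tissues with stem cells called 4362 to 5310 genes higher and 5110 to 5974 lower in the cells under the alternatives that kept all arrays of both groups and the same genes, other than normexp, which called 2956 and 3754 and gave 630 of the 10410 called genes the opposite sign. Keeping only probes above background on all 5 arrays called 3350 and 4474 of 11490 genes. The share of higher calls, 44.4%, ranged from 42.2% to 50.4%. The all-gene median of -0.23 moved to 0.19 with normexp, -0.50 without a filter, -0.05 with quantile normalization and -0.03 when centred on the scaling genes. Leaving out 1 array gave 3881 to 4380 higher and 5039 to 5701 lower. Slide as a random block (consensus correlation -0.03) gave 4654 and 5820, and the scan number as a block 4362 and 5974.

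The difference between contrasts was less stable than the contrast. Its 81 higher and 286 lower calls became 26 and 117 with the 10 arrays at 5 h, 38 and 179 without a filter, 151 and 474 with probes above background on all 5 arrays, 0 and 3 with normexp, 190 and 384 with quantile normalization, 31 and 136 with median centring, 120 and 190 with the scaling genes, 19 and 130 with array weights, and 54 and 189 with the mean of probes. The share of higher calls, 22.1%, became 33.1% with quantile normalization and 38.7% with the scaling genes. Leaving out 1 array gave 16 to 81 higher and 53 to 272 lower. The cause was not tested. An unadjusted p under 0.05 was reached by 2865 genes.

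Among 253 genes named for the contrast, 36 changed call or direction under at least 1 alternative. The sign turned with normexp for Il3 (0.38) and Mtmr11 (0.16), with the mean of probes for Rnmt (0.077), and with quantile normalization for Mat2a (0.47) and Tapbp (1.03). Of 25 named for the difference, 24 did, and normexp turned Ccr1 (0.031) and Trmt61b (0.41). Levels near background limit all bounds. Normexp moved other list medians by over 1.5 times without turning them, to 1.32 for the cell cycle, 1.39 for chemokine receptors, 1.23 for leukocyte transcription factors, 1.83 for T cell activation, 0.81 for T cell cytokines and -1.29 for CC and other chemokines. Without cells No. 987 the acute phase median was -6.20.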

Other observations

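Genes often used to scale arrays were themselves unequal between the inflammatory cells and the livers. Of 20, 4 were higher in the cells (20%, all genes 28.3%) and 8 lower (40%, all genes 35.5%). Their median log2 difference of -0.25 became 0.59 with quantile normalization. The ribosomal proteins Rplp0 (0.92 ± 0.16 (SE; adjusted p = 0.000282)) and Rpl13a (2.15 ± 0.22 (SE; adjusted p = 1.69e-06)) were higher in the cells, as was Ywhaz, a 14-3-3 adaptor (1.54 ± 0.20 (SE; adjusted p = 1.52e-05)). Sdha, of the respiratory chain, stood at 0.96 and 0.94 in the cells, against 3.79, 3.57 and 3.74 in the livers, a difference of -2.75 ± 0.19 (SE; adjusted p = 5.93e-08) with 2 of its 3 probes of this sign, and the glycolytic enzyme Pgk1 (-2.02) and the chaperone Vcp (-1.03) were lower too.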
